A study of Mus musculus with 12 samples.

Results

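Cytochrome P450 genes and the genes of the aryl hydrocarbon receptor (AHR) axis were followed in 3T3 cells, a mouse fibroblast line, that had received extracellular vesicles (EVs) from breast cancer cells. The set holds 10 of the 32544 gene rows in the table: Cyp2f2, Cyp1b1, Cyp1a1, Cyp7b1, Cyp26b1, Por, Ahr, Ahrr, Tiparp and Arnt, each matched by its symbol. It was put together around Cyp2f2, which was picked because it had no counts after EVs from CRIPTO-overexpressing cells. The set was thus chosen by those values, so every comparison with that group is given as a description and without a test. Of the 10 genes, 9 passed the filter on low counts and were tested among 14279 genes, and Cyp1a1 was not.

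The study used 4 groups of 3 libraries from bulk poly(A)-selected RNA. One group of 3T3 cells was untreated. The remaining groups received, for 24 h, EVs, membrane-bound particles shed by cells, that had been collected from MDA-MB-468, an established line of human breast carcinoma. Donors were control cells (shCon), cells depleted of CRIPTO (shCr) or cells overexpressing it (CrOE). CRIPTO is a surface protein of the EGF-CFC family. Columns headed with the name CRIPTO alone were assigned to the CrOE group by elimination, since the knockdown libraries had columns named shCr. The number of donor clones, the EV dose and whether replicates were separate cultures are not given in the sources used here, so p-values measure only the spread between these libraries. The altered gene was changed in human donor cells and was not analysed here.

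Totals ran from 25960054 to 27189953 estimated counts per library in untreated cells and from 31389839 to 35490290 with CrOE EVs, with the other EV groups between 27811383 and 37774020. Replicate libraries correlated at 0.986 to 0.994 across tested genes (log2 CPM, where CPM is the count scaled to a common library size), and CrOE EV libraries stood apart, at 0.900 to 0.921 with the libraries of other groups. Genes are not independent replicates, and these values only describe the libraries. Each of 8 fibroblast markers had more than 3 counts in some library of every group, except Lum with CrOE EVs (0.0097 CPM on average), and their summed level was 14860 to 15840 CPM in untreated cells and 4688 to 4868 CPM with CrOE EVs. Of 8 epithelial markers, Epcam was at 0 in every library and the list summed to 0.966 to 2.32 CPM, and 5 hepatocyte markers summed to at most 0.169 CPM in any library. Immune markers (6, mostly Cd14) summed to 77.0 to 87.8 CPM in untreated cells, 46.5 to 48.7 with shCon EVs, 50.2 to 57.7 with shCr EVs and 29.5 to 36.3 with CrOE EVs. The 5 endothelial markers, mostly Vwf, summed to 2.21 to 3.04 CPM in untreated cells and 17.4 to 20.2 CPM with CrOE EVs, and the part of these lists in the results was not tested.

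As background, P450 enzymes are heme proteins that oxidise drugs, pollutants, steroids and signalling lipids, and those of the endoplasmic reticulum take their electrons from the reductase encoded by Por. AHR is a transcription factor of the bHLH-PAS family that waits in the cytosol in a chaperone complex. On binding a ligand such as a polycyclic aromatic hydrocarbon or a tryptophan metabolite it enters the nucleus, pairs with ARNT and induces Cyp1a1, Cyp1b1 and its own brakes Ahrr and Tiparp. In fibroblasts Cyp1b1 is the best known of the AHR-linked P450 enzymes.

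The main pattern was a fall of 4 P450 genes and of Ahr itself after EVs from control donor cells and from CRIPTO-depleted donor cells. Against untreated cells, Cyp2f2, Cyp1b1, Cyp7b1, Cyp26b1 and Ahr fell with shCon EVs (5 of 9 tested genes lower and 0 higher), and the same 5 genes fell with shCr EVs. Calls were made with edgeR's quasi-likelihood test at a Benjamini-Hochberg adjusted p under 0.05 over all genes. Over all genes, 38.1% were called with shCon EVs (18% higher and 20.2% lower) and 37.3% with shCr EVs (18.4% higher and 18.8% lower). Both comparisons share the untreated libraries, and the genes were assembled with earlier results known, so the count describes the set and is no test of it. The median log2 fold change of the 9 genes was -0.48 with shCon EVs (0.0069 over all genes) and -0.59 with shCr EVs (0.020 over all genes). Por, Arnt, Ahrr and Tiparp were no calls in either comparison. In the same libraries the fibroblast markers summed to 17060 to 17240 CPM with shCon EVs and 11620 to 13280 CPM with shCr EVs, above and below the untreated range. These sums were mostly Col1a1, Col1a2 and Vim, and the markers did not move together. With shCon EVs mean Col1a1 went from 4535 to 6557 CPM, and mean Pdgfra from 1083 to 652.6 CPM. With shCr EVs mean Col1a1 went to 3532 CPM, and mean Pdgfrb from 547 to 729.6 CPM. The endothelial markers summed to 5.48 to 6.12 and 4.20 to 5.58 CPM, both above their untreated range, and the part of these lists in the falls was not tested. Bulk RNA cannot tell fewer cells of a type apart from less RNA per cell.

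**Figure D1:**
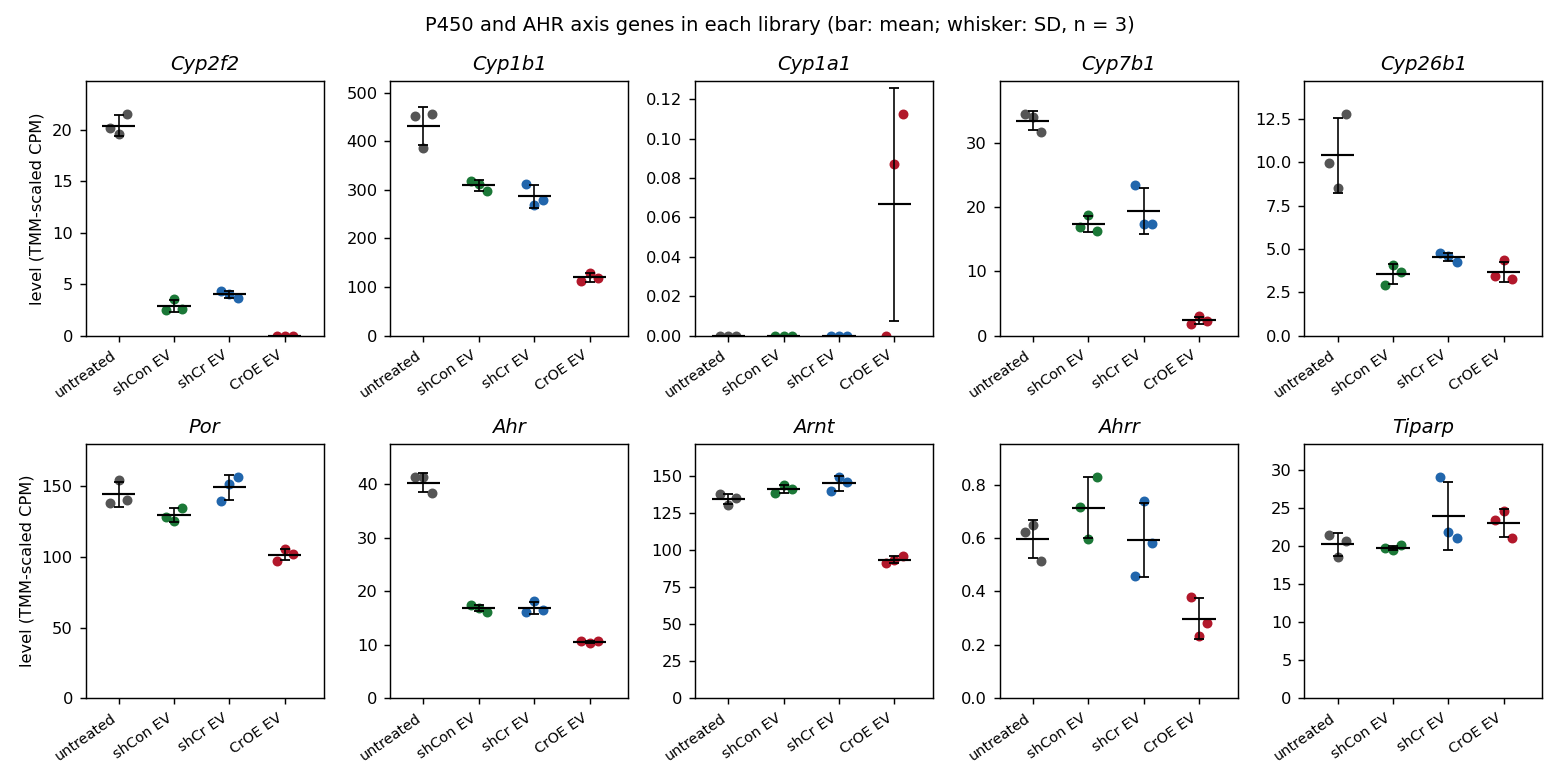
Level of each of the 10 genes in every library, in TMM-scaled CPM on a linear axis from 0, with 1 point per library, a bar at the group mean and whiskers of 1 SD (n = 3 libraries). Cyp2f2 was at 19.6 to 21.5 CPM in untreated cells and at 0 in the CrOE EV libraries, while Arnt stayed between 131 and 149 CPM in the other 9 libraries.

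Cyp2f2 encodes a xenobiotic-metabolising P450 best known from club cells of the mouse airway, where it activates naphthalene. Its level was 20.1, 19.6 and 21.5 CPM in the 3 untreated libraries, 2.47, 3.52 and 2.56 CPM with shCon EVs, and 4.34, 4.04 and 3.60 CPM with shCr EVs. In the CrOE EV libraries it had 0 counts in each. Every EV library was below every untreated library. Cyp2f2 fell 7.17-fold with shCon EVs (log2 change -2.84, SE 0.14, adjusted p = 8.6e-08, edgeR) and 5.11-fold with shCr EVs (-2.36, SE 0.13, adjusted p = 2.1e-07). The shCr EV libraries all lay above the shCon EV libraries, with a log2 difference of 0.48 (95% interval 0.16 to 0.80). That difference missed the threshold (adjusted p = 0.072, edgeR; 0.0212 to 0.236 over 11 alternatives). It was a call with DESeq2 (adjusted p = 0.0462) and without shCon EV replicate 2, the library with the most Cyp2f2 in its group (adjusted p = 0.0212, edgeR).

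Since a count of 0 allows up to 3 counts in a library, Cyp2f2 in the CrOE EV libraries was lower by at least 229.7-fold relative to untreated cells, 32.0-fold relative to shCon EVs and 44.9-fold relative to shCr EVs. These bounds are computed at 3 counts per library (a mean of 0.0889 CPM) and cover counting error only. Exons of Cyp2f2 overlap an antisense gene over 13.5% of their bases, and the use of read strand in the counting is not given in the sources used here. Of 5 genes listed as club cell markers, Scgb3a2 was at 0 in all groups and Scgb1a1 at 0 in all EV groups. The list summed to 0.265 to 0.899 CPM over all libraries, mostly Foxj1 (group means of 0.347 to 0.608 CPM), so the sum is no measure of club cells. In untreated cells, then, Cyp2f2 was at 19.6 to 21.5 CPM while Scgb1a1 was at 0.012 CPM on average.

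Cyp2f2 levels over the 12 libraries were most like those of Clu (Pearson r of log2 CPM 0.998), Slc38a4 (0.998), Capzb (0.997), S100a11 (0.997) and Aim1 (0.997), out of 11546 genes compared. Clu averaged 154 ± 5.69 CPM (SD, n = 3) in the untreated group, 48.3 ± 2.01 with shCon EVs, 58.9 ± 4.25 with shCr EVs and 3.51 ± 0.358 with CrOE EVs. Capzb had the same order over a narrower range, from 392 ± 4.76 CPM in untreated cells to 172 ± 0.763 with CrOE EVs. The 12 libraries include the CrOE EV zeros by which Cyp2f2 was chosen, so the likeness rests in part on the values that chose it. They are also 4 groups, so these correlations reflect the order of the group levels, and the counts of S100a11 are uncertain because 48.9% of its 31-base stretches are shared with further genes. Aim1 was not found by name in the annotation searched for such stretches (GENCODE M21), so its counts were not checked in this way. Within the set, Cyp7b1 (0.988) and Cyp1b1 (0.986) were closest to Cyp2f2, Cyp26b1 had an r of 0.679, and Tiparp ran the other way (-0.328).

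Cyp1b1 encodes a P450 that oxidises estradiol and polycyclic hydrocarbons and is a direct AHR target. It had 452, 386 and 456 CPM in untreated cells, 318, 313 and 297 CPM with shCon EVs and 312, 268 and 279 CPM with shCr EVs. After CrOE EVs it had 112, 129 and 119 CPM, below all other libraries. The 2 EV groups other than CrOE overlapped each other and lay below the untreated libraries. Cyp1b1 fell by 0.48 on the log2 scale with shCon EVs (SE 0.079, adjusted p = 0.000415, edgeR) and by 0.59 with shCr EVs (SE 0.079, adjusted p = 7.6e-05). Between these EV groups the log2 difference was -0.11 (95% interval -0.28 to 0.062, adjusted p = 0.467). Against untreated cells, the level with CrOE EVs was 3.59-fold lower.

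Cyp7b1 encodes a hydroxylase of oxysterols that lies on the alternative route of bile acid synthesis and inactivates oxysterol ligands. It had 34.5, 34.1 and 31.7 CPM in untreated cells, 17.0, 18.8 and 16.3 CPM with shCon EVs and 23.5, 17.4 and 17.4 CPM with shCr EVs. Only 1.87 to 3.00 CPM were left with CrOE EVs. Its log2 fold change was -0.95 with shCon EVs (SE 0.13, adjusted p = 0.000114, edgeR) and -0.79 with shCr EVs (SE 0.13, adjusted p = 0.000416). shCr EV replicate 1 was the high library of its group, and the difference between these EV groups, 0.16 on the log2 scale (95% interval -0.13 to 0.45), was -0.0029 without it. With CrOE EVs Cyp7b1 was 14.2-fold lower than in untreated cells, 7.34-fold lower than with shCon EVs and 8.21-fold lower than with shCr EVs.

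Cyp26b1 encodes a hydroxylase that clears retinoic acid. It had 9.96, 8.50 and 12.8 CPM in untreated cells, a wide spread (coefficient of variation 20.8%). It had 2.93 to 4.08 CPM with shCon EVs, 4.27 to 4.76 CPM with shCr EVs and 3.26 to 4.33 CPM with CrOE EVs. All EV libraries were below all untreated ones. The log2 fold change against untreated cells was -1.54 with shCon EVs (SE 0.17, adjusted p = 1.5e-05, edgeR) and -1.20 with shCr EVs (SE 0.16, adjusted p = 8.3e-05). For CrOE EVs it was -1.50 (SE 0.17). The CrOE EV libraries overlapped those of both other EV groups, so Cyp26b1 had no further drop there of the kind seen in Cyp2f2, Cyp1b1 and Cyp7b1.

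Por, the electron donor of these enzymes, was a no call in each tested comparison. It had 138 to 155 CPM in untreated cells, 126 to 135 CPM with shCon EVs, 140 to 157 CPM with shCr EVs and 97.5 to 106 CPM with CrOE EVs. The log2 fold change with shCon EVs was -0.16 (95% interval -0.29 to -0.022, adjusted p = 0.0642, edgeR), with its libraries below the untreated ones, and with shCr EVs 0.049 (-0.084 to 0.18, adjusted p = 0.572). The first was a call with the replicate number as a block (adjusted p = 0.0456) and when the model held these groups alone (0.0475), out of a range of 0.0456 to 0.225 over 12 alternatives. Between shCr and shCon EVs the difference was 0.20 (0.071 to 0.34, adjusted p = 0.0605). It was a call with DESeq2 (0.0302), with the block (0.0451) and without shCr EV replicate 1 (0.0186), in a range of 0.0186 to 0.218.

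Ahr, the receptor, fell after both shCon and shCr EVs, and the change was of like size. It had 41.4, 41.3 and 38.3 CPM in untreated cells, 17.4, 16.8 and 16.2 CPM with shCon EVs and 16.1, 18.1 and 16.4 CPM with shCr EVs. A lower level of 10.7, 10.3 and 10.6 CPM was measured with CrOE EVs. The log2 fold change was -1.26 with shCon EVs (SE 0.065, adjusted p = 2.5e-08, edgeR) and -1.26 with shCr EVs (SE 0.064, adjusted p = 1.9e-08). The difference between them was 0.0049 with a 95% interval of -0.14 to 0.15. With CrOE EVs Ahr was 3.83-fold lower than in untreated cells and 1.60-fold lower than with either other EV. Exons of Ahr overlap an antisense gene over 2.1% of their bases.

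Arnt, the partner that AHR needs on DNA and that also pairs with the hypoxia-inducible factors, was not called. It had 131 to 137 CPM in untreated cells, 138 to 144 CPM with shCon EVs and 140 to 149 CPM with shCr EVs, so both EV groups lay just above the untreated libraries. Log2 fold changes were 0.070 (95% interval -0.030 to 0.17, adjusted p = 0.257, edgeR) and 0.11 (0.0087 to 0.21, adjusted p = 0.0843). The second was a call without shCr EV replicate 1 (adjusted p = 0.0236; 0.0236 to 0.262 over 12 alternatives). After CrOE EVs Arnt was at 91.1 to 95.9 CPM, below every other library, with log2 fold changes of -0.53 to untreated cells (SE 0.046), -0.60 to shCon EVs and -0.64 to shCr EVs.

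The count of Ahr per 100 counts of Arnt in the same library needs no scaling between libraries. Its absolute size depends on the length of both transcripts, so only its change between libraries is read. It was 30.0 ± 1.66 (SD, n = 3) in untreated cells, 11.9 ± 0.575 with shCon EVs, 11.6 ± 0.447 with shCr EVs and 11.3 ± 0.359 with CrOE EVs. The untreated libraries (28.3 to 31.6) were separate from all 9 EV libraries (11.1 to 12.6), and the 3 EV groups overlapped one another. Between CrOE and shCon EVs the log2 fold changes of Ahr and Arnt were -0.67 and -0.60.

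**Figure D2:**
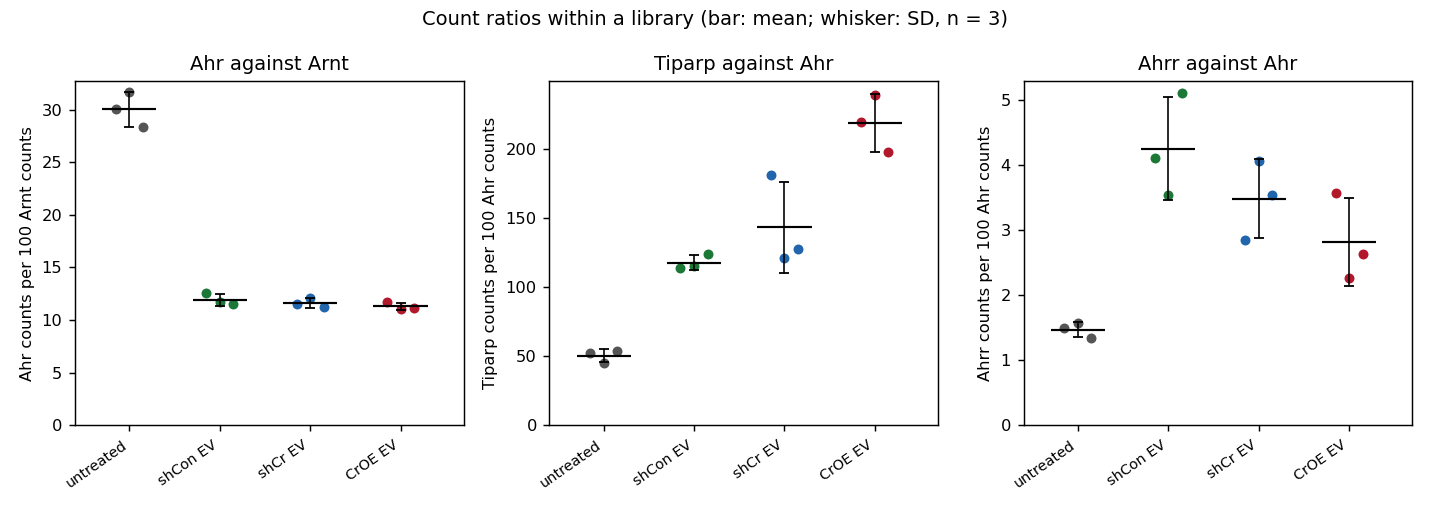
Count ratios inside each library, per 100 counts of the denominator gene, on linear axes from 0, with 1 point per library, a bar at the mean and whiskers of 1 SD (n = 3). Ahr against Arnt was about 30.0 in untreated cells and 11.3 to 11.9 on average in the EV groups, and Tiparp against Ahr was 50.3 in untreated cells and 118 to 219 on average in the EV groups. Ahr was lower in every EV group, whereas the Tiparp level of each EV group overlapped that of untreated cells.

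Cyp1b1 fell, whereas the other AHR targets of the set were near 0 or no calls. Cyp1a1, the classical target, had 0 counts in all 9 libraries of the untreated, shCon EV and shCr EV groups, which allows up to 3 counts in each. It had 0, 3 and 4 counts in the CrOE EV libraries, too few for a fold. Ahrr, the repressor that competes with AHR for ARNT, was at 13 to 23 counts in the libraries of the first 3 groups and 8 to 12 with CrOE EVs. Its means were 0.595 ± 0.0705 CPM in untreated cells, 0.714 ± 0.116 with shCon EVs, 0.593 ± 0.140 with shCr EVs and 0.298 ± 0.0754 with CrOE EVs (SD, n = 3). The CrOE EV libraries lay below all others. At this depth, log2 fold changes of Ahrr against untreated cells were bounded only to -0.32 to 0.84 with shCon EVs (adjusted p = 0.482, edgeR) and -0.63 to 0.63 with shCr EVs.

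Tiparp encodes a mono-ADP-ribosyltransferase that is induced by AHR and dampens it, and 5.1% of its exon bases overlap an antisense gene. It had 21.5, 18.6 and 20.7 CPM in untreated cells, 19.8, 19.5 and 20.1 CPM with shCon EVs, 29.1, 21.9 and 21.02 CPM with shCr EVs and 23.4, 24.6 and 21.1 CPM with CrOE EVs. The groups overlapped untreated cells, and shCr EV replicate 1 was the high library. Log2 fold changes were -0.035 with shCon EVs (95% interval -0.28 to 0.21, adjusted p = 0.837, edgeR) and 0.24 with shCr EVs (-0.0035 to 0.49, adjusted p = 0.115). The latter was a call without shCr EV replicate 3 (adjusted p = 0.0447; 0.0447 to 0.442 over 12 alternatives). For CrOE EVs the log2 fold change was 0.18 (SE 0.11), which made Tiparp the 1 tested gene of the set that was not lower there than in untreated cells. Relative to Ahr in the same library, Tiparp went from 50.3 ± 4.72 to 118 ± 5.52, 143 ± 32.9 and 219 ± 20.7 counts per 100, in the order untreated, shCon, shCr and CrOE EVs. In that order mean Ahr went from 40.3 to 16.8, 16.9 and 10.5 CPM, so the ratio follows the fall of its denominator.

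AHR and ARNT bind a short core, GCGTG, in the dioxin response elements of their targets, and the same letters are one form of the hypoxia response element. Promoter sequences from RefSeq (GRCm38.p6) were found for 8 of the 10 genes, and the 250 bases before the annotated start were searched on both strands. For Cyp26b1, the letters after the RefSeq start matched no GENCODE M21 transcript of the gene in a check that the other 7 passed, and whether its window lies before the transcripts counted here was not tested. The core occurred in 6 of these 8, namely Cyp1b1, Cyp1a1, Por, Ahrr, Tiparp and Arnt, and in 28.2% of 32851 promoter windows of the same length. The longer form TNGCGTG, which contains the core, occurred in 1 of the 8, Ahrr, and in 4.10% of all windows. The feedback genes and P450 targets, which share the core, are shown first, and Cyp2f2, with neither form in this window, is shown beside them. Por, with 3 matches, and Arnt, with 1, hold the core as well and are not shown. Sequences run 5′ to 3′ on the gene's strand and end at the base before the start, with GCGTG or its reverse complement in capitals.
Ahrr, chr13:74292332-74292581 (minus strand): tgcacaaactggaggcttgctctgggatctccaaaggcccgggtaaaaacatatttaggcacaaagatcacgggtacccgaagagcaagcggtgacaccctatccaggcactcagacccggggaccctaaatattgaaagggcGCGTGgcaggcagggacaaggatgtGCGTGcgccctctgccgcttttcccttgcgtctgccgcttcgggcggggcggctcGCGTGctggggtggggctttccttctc
Tiparp, chr3:65528197-65528446 (plus strand): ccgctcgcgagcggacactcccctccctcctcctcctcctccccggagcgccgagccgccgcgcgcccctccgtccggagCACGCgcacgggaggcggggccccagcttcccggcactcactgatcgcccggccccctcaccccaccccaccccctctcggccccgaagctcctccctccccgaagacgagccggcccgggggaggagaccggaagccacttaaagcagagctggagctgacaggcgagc
Cyp1b1, chr17:79715062-79715311 (minus strand): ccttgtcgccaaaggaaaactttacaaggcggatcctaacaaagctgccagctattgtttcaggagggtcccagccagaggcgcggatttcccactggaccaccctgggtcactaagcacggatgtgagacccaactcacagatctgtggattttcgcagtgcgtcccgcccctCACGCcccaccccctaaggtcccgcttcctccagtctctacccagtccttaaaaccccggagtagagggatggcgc
Cyp1a1, chr9:57697363-57697612 (plus strand): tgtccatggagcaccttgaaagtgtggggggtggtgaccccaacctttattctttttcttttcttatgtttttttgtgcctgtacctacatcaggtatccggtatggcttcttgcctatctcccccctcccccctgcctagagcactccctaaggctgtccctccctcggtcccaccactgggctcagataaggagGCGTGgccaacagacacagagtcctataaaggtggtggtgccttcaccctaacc
Cyp2f2, chr7:27119705-27119954 (plus strand): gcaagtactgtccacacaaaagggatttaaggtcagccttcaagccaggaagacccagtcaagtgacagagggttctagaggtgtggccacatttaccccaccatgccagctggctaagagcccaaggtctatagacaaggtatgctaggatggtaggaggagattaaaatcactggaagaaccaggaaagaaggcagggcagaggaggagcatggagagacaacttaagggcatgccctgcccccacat

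A match is a description of letters and not a binding site, and a window without a match says nothing of elements elsewhere. Ahrr holds the core at bases -107 to -103, -82 to -78 and -27 to -23 before the start, all on the gene's strand. Cyp1b1 holds it at -76 to -72 and Tiparp at -170 to -166, both on the opposite strand, and Cyp1a1 at -54 to -50. Of these 4 genes, Cyp1b1 fell after shCon and shCr EVs, Tiparp and Ahrr were no calls, and Cyp1a1 was at 0.

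Comparing shCr with shCon EVs asks whether depletion of CRIPTO in the donor cells mattered, while its overexpression is only described, further below. Between shCr and shCon EVs, edgeR's quasi-likelihood test called 0 of the 9 tested genes, against 8.73% of all genes (5.22% higher and 3.51% lower). At an unadjusted p under 0.05 there were 3, against 22.5% of all genes, and DESeq2 called 2, Cyp2f2 and Por, against 11.7% of the genes to which it gave an adjusted p. The libraries of 4 of the 9 (Cyp2f2, Cyp26b1, Por and Tiparp) did not overlap, each higher with shCr EVs, where those of 28% of all genes did not (15.5% higher and 12.5% lower). With 9 genes put together after earlier results were known, this count is a description. The narrowest interval was that of Arnt (log2 difference -0.061 to 0.14) and the widest that of Ahrr (-0.82 to 0.31).

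With CrOE EVs, 8 of 9 tested genes had libraries entirely below the untreated ones, where the libraries of 77.7% of all genes did not overlap (38.8% higher and 38.8% lower). Against shCon EVs, 7 were lower and 1, Tiparp, was higher without overlap (80.5% of all genes, 40.7% higher and 39.8% lower), and against shCr EVs 7 were lower (74% of all genes, 37.1% higher and 36.9% lower). Nothing is read from these counts, since the CrOE EV values chose Cyp2f2. The median log2 fold change of the 9 genes was -1.50 against untreated cells, and that of all genes 0.0078. The 8 fibroblast markers summed to 4688 to 4868 CPM in these CrOE EV libraries, against 11620 CPM or more in all others, and the part of this in the values was not tested.

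**Figure D3:**
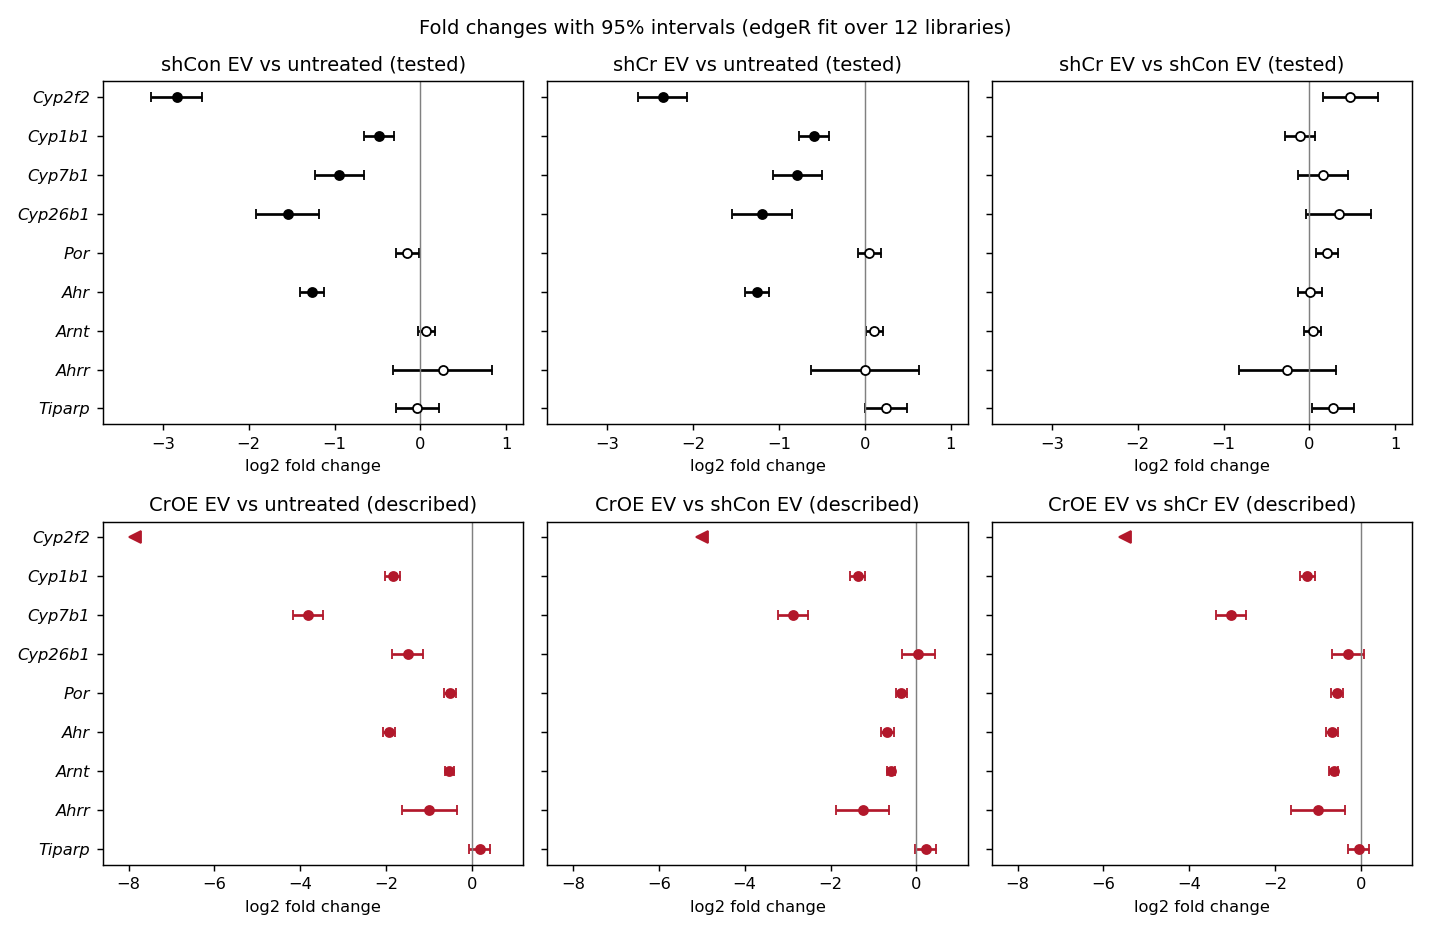
Log2 fold changes of the 9 tested genes in 6 comparisons with 95% intervals from the edgeR fit over 12 libraries, filled black where adjusted p was under 0.05, open where it was not, and red where no test was made. Cyp2f2 lies at -2.84 and -2.36 after shCon and shCr EVs, and left-pointing triangles mark the bounds for CrOE EVs, where it had 0 counts.

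Of 89 further P450 rows in the table, 20 were tested. At most 3 counts in every library were held by 53 rows, and 25 of these 53 were at 0 in every library. After shCon EVs 6 rose and 2 fell, with a median log2 fold change of 0.13 against 0.0069 for all genes, and with shCr EVs 7 rose and 0 fell (median 0.34 against 0.020). The 8 of 20 and 7 of 20 called lie near the 38.1% and 37.3% over all genes. With CrOE EVs, 4 of the 20 lay above and 9 below the untreated libraries without overlap (median -0.23 against 0.0078 for all genes). Of all genes, 77.7% did not overlap there (38.8% higher and 38.8% lower). Relative to shCon EVs, 2 lay above and 13 below (80.5% of all genes, 40.7% higher and 39.8% lower). Relative to shCr EVs, 2 lay above and 11 below (74% of all genes, 37.1% higher and 36.9% lower). Cyp4v3, a fatty acid hydroxylase with 8.2% of its exon bases overlapped by other genes, rose from 27.5 CPM in untreated cells to 35.8 with shCon EVs (log2 change 0.38, adjusted p = 0.00309, edgeR) and 33.7 with shCr EVs (0.29, adjusted p = 0.0144). Cyp4f13 rose with shCr EVs (0.60, adjusted p = 0.00195). Cyp39a1, another oxysterol hydroxylase, fell from 8.77 to 6.42 CPM with shCon EVs (-0.45, adjusted p = 0.00262). In shCr against shCon EVs, edgeR called 1 of the 20 higher and 0 lower (8.73% of all genes called). DESeq2 called 0 (11.7% of all genes), and 3 had an unadjusted p under 0.05 with edgeR (22.5%). These 20 were taken by symbol alone, and the set around Cyp2f2 was not, so the contrast between them is a description.

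Of 9 tested further genes of the AHR battery, 1 rose and 0 fell with shCon EVs, and 4 rose and 1 fell with shCr EVs (medians -0.029 and 0.22). That is 1 and 5 of 9 called, where 38.1% and 37.3% of all genes were, and with 4 to 20 genes a list the counts in this and the following lists describe the genes and set no list apart. Slc7a5, an amino acid transporter, rose from an untreated level of 94.1 ± 15.1 CPM (SD, n = 3) to 272 ± 13.4 with shCon EVs (log2 change 1.53, adjusted p = 1.7e-07, edgeR) and 225 ± 20.8 with shCr EVs (1.26, adjusted p = 8.2e-07). It was at 621 ± 22.4 CPM with CrOE EVs. Nfe2l2, which encodes the antioxidant regulator NRF2, rose with shCr EVs (0.34, adjusted p = 0.000192). Tgm2, a transglutaminase, fell with shCr EVs (-0.45, adjusted p = 0.00159), and 21.8% of its exon bases overlap other genes. Of the 9, shCr against shCon EVs gave 2 that were higher and 1 that was lower, beside 5.22% and 3.51% of all genes.

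Among 12 tested chaperones, coactivators and bHLH-PAS partners, 4 rose and 4 fell with shCon EVs, and 4 rose and 2 fell with shCr EVs (medians -0.11 and 0.084), which is 8 and 6 of 12 called beside 38.1% and 37.3% of all genes. Epas1, which encodes the hypoxia-inducible factor HIF-2α and uses ARNT as AHR does, was at 39.1 ± 5.52 CPM in untreated cells (SD, n = 3). It fell to 24.6 ± 0.761 with shCon EVs (log2 change -0.67, adjusted p = 0.000519, edgeR), rose to 54.2 ± 4.95 with shCr EVs (0.47, adjusted p = 0.00452) and was at 1.18 ± 0.310 with CrOE EVs. Hif1a, its paralog, fell from 640 ± 70.7 to 518 ± 6.17 (-0.30, adjusted p = 0.00965) and 363 ± 31.7 CPM (-0.82, adjusted p = 5.6e-06), and 8.1% of its exon bases overlap other genes. Arntl, the clock factor BMAL1, and the coactivator gene Ncoa1 rose in both comparisons, with log2 fold changes of 0.30 to 0.38. In the direct comparison of shCr with shCon EVs, 3 of the 12 were higher and 2 lower, beside 5.22% and 3.51% of all genes.

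Besides Por, 8 electron carriers and heme-binding partners of the P450 system were tested. Of these, 3 rose and 1 fell with shCon EVs, and 5 rose and 0 fell with shCr EVs (medians 0.068 and 0.32), which is 4 and 5 of 8 called beside 38.1% and 37.3% of all genes. Cyb5r1, a cytochrome b5 reductase, rose from 54.3 ± 8.45 CPM (SD, n = 3) to 131 ± 8.72 with shCon EVs (log2 change 1.27, adjusted p = 6.7e-07, edgeR) and 93.1 ± 7.18 with shCr EVs (0.78, adjusted p = 4.1e-05), and was at 415 ± 15.6 with CrOE EVs. Pgrmc2, a heme-binding membrane protein, rose from 120 ± 3.57 to 170 ± 4.35 and 196 ± 9.91 CPM (0.51 and 0.71). Between shCr and shCon EVs 2 were higher and 1, Cyb5r1 (-0.49, adjusted p = 0.00699, edgeR), was lower, beside 5.22% and 3.51% of all genes.

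Of 8 heme synthesis genes, 2 rose and 2 fell with shCon EVs and 2 rose and 1 fell with shCr EVs (medians 0.029 and 0.050), or 4 and 3 of 8 called beside 38.1% and 37.3% of all genes. Alas1, the rate-limiting enzyme of heme synthesis, with 7.5% of its exon bases overlapped, rose in both (log2 fold change 0.24, adjusted p = 0.00401, and 0.44, adjusted p = 3.6e-05, edgeR), as did Uros (0.52 and 0.47). Of 4 heme breakdown genes, 2 rose and 2 fell with shCon EVs and 2 rose and 0 fell with shCr EVs (medians 0.018 and 0.13). That is 4 and 2 of 4 called, again beside 38.1% and 37.3% of all genes. Hmox1, which opens the heme ring, rose from 281 to 339 and 353 CPM (0.27, adjusted p = 0.00257, and 0.33, adjusted p = 0.000607). Between shCr and shCon EVs edgeR called 1 of the 8 synthesis genes, which was higher, and 0 of the 4 breakdown genes, beside 8.73% of all genes. At an unadjusted p under 0.05 there was 1 breakdown gene (22.5% of all genes), and with DESeq2 there were 0 (11.7%).

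Around Cyp26b1, 13 genes of retinoic acid synthesis, binding and response were tested. After shCon EVs 5 rose and 2 fell, and with shCr EVs 4 rose and 2 fell (medians 0.35 and 0.17), or 7 and 6 of 13 called beside 38.1% and 37.3% of all genes. Rdh10, which makes retinal from retinol, rose from 13.1 ± 0.276 CPM (SD, n = 3) to 21.8 ± 0.833 with shCon EVs (log2 change 0.74, adjusted p = 2.1e-05, edgeR) and 22.6 ± 2.56 with shCr EVs (0.79, adjusted p = 1.1e-05). Dhrs3, which reduces retinal back to retinol, rose as well (0.85 and 0.75). Around Cyp7b1, 8 oxysterol genes were tested, of which 2 rose and 3 fell with shCon EVs and 3 rose and 1 fell with shCr EVs (medians -0.16 and -0.10), or 5 and 4 of 8 called. Hsd3b7 of bile acid synthesis rose in both (0.77 and 0.50), but its counts are uncertain, with 88.8% of its 31-base stretches found in other genes. In shCr against shCon EVs, edgeR called 0 of the 13 retinoic acid genes (4 at an unadjusted p under 0.05, 1 with DESeq2). It called 0 of the 8 oxysterol genes (3 and 0). Of all genes, edgeR called 8.73%, 22.5% had an unadjusted p under 0.05, and DESeq2 called 11.7%.

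**Figure D4:**
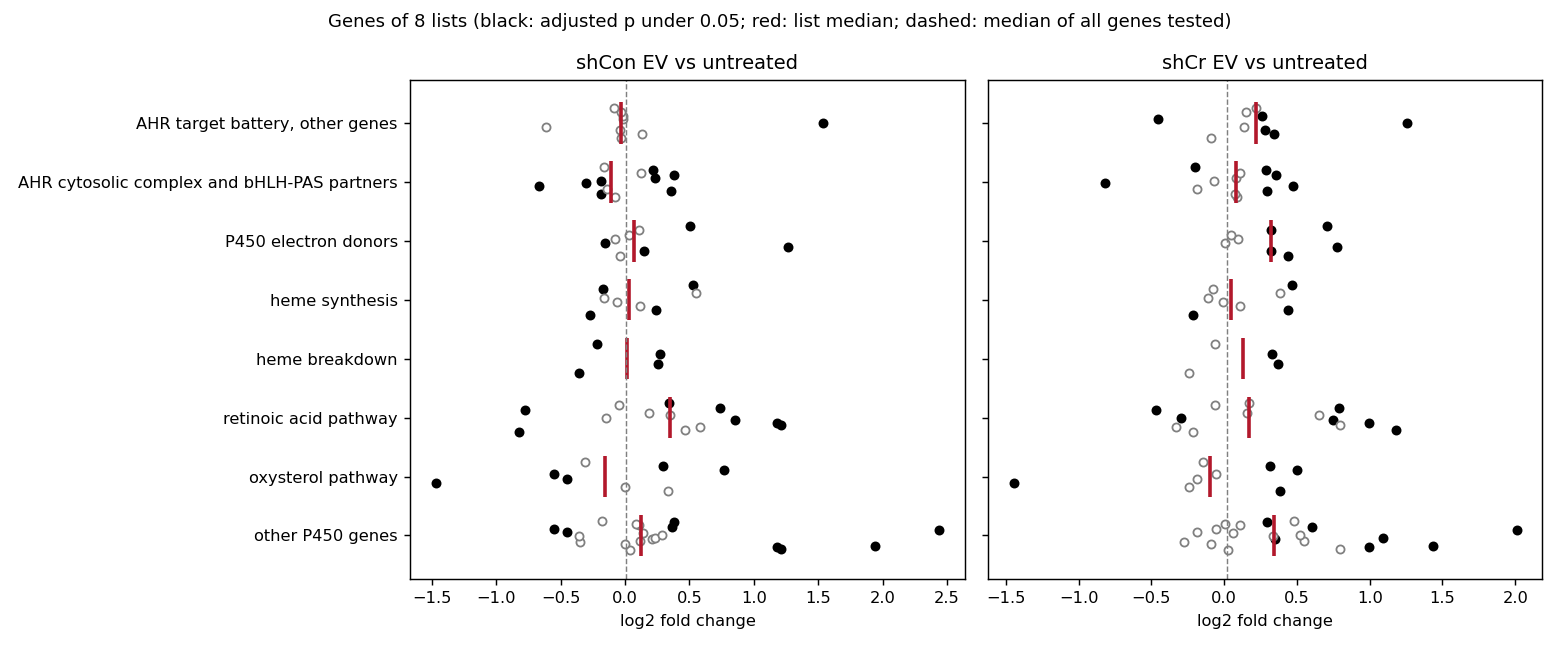
Log2 fold changes of the tested genes of 8 lists with shCon EVs (left) and shCr EVs (right) against untreated cells, with calls in black, other genes open, list medians in red and the median of all tested genes dashed. The 20 further P450 genes have medians of 0.13 and 0.34, above the dashed lines at 0.0069 and 0.020.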

How the data were processed

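Bulk RNA of 12 libraries in 4 groups was deposited by the authors as a table of unscaled estimated counts, 1 row per gene symbol. The unit was read from the values, 39.8% of which were not whole numbers. featureCounts and the build mm39 are named in the submitters' processing notes, with no version, and the aligner, the annotation and the use of strand are not given in the sources used here. Libraries were directional and poly(A)-selected, per the labels' protocols.

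Values were rounded to whole numbers, genes were kept by filterByExpr, and libraries were scaled by TMM. One edgeR 4.0.16 model (R 4.3.3) with a mean per group was fitted to all libraries, which left 8 residual degrees of freedom, and p-values were adjusted by Benjamini-Hochberg over the 14279 tested genes. The common dispersion was 0.00793. Standard errors were derived from the F statistic. Levels are TMM-scaled CPM, and log2 CPM used a prior count of 2. The design had assumed raw counts, and the same test was kept. The script was tested on simulated whole-number counts, which does not test it on rounded estimates.

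The members and lists were chosen with earlier results of these data known. All 10 members are named. From each list, the rule took the called genes with the 2 largest rises and the 2 largest falls after shCon or shCr EVs at an average log2 CPM of at least 0. The text names those whose call against untreated cells was kept under every alternative. Likeness to Cyp2f2 was taken where that average was at least 1. The alternatives were DESeq2 1.42.0, its size factors in edgeR, other low-count filters, a replicate block, a model of 2 groups and each library left out. GENCODE M21 (GRCm38) gave overlaps and shared stretches by gene name only, since its build differs from that of the notes, and RefSeq promoters carry coordinates of GRCm38.p6.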

Additional observations from a re-analysis of the deposited data

Results flagged for a closer look

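Epas1 moved in opposite directions against untreated cells, by -0.67 with shCon EVs and by 0.47 with shCr EVs on the log2 scale. The difference between these EV groups was itself a call (log2 difference 1.14 for shCr against shCon EVs, edgeR adjusted p = 6.5e-05), and all 3 calls were kept under every alternative run. None of the 9 tested P450 and AHR axis genes showed such a pair of opposite calls.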

How the results depend on the processing

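The 10 falls of Cyp2f2, Cyp1b1, Cyp7b1, Cyp26b1 and Ahr after shCon and shCr EVs were calls in all 118 refits that gave a value. Leaving out any library kept 5 falls in each comparison, and the calls after shCr EVs then numbered 5 to 6, the sixth a rise of Arnt or of Tiparp. After shCon EVs, Por was a sixth fall with the replicate block and in a model of 2 groups. Cyp2f2 and Ahrr had no value with at least 10 counts in every library. Of 200 refits of the 17 other values, 9 became calls, all given with the results. For shCr against shCon EVs, 2 of the genes were called with DESeq2, 1 with the replicate block and 0 to 1 without a library; in the lists together, 13 genes were called, 7 with no low-count filter, 5 in a model of only the 2 groups compared and 6 to 12 without a library (7, 7 and 6 without shCon EV replicates 1, 2 and 3).

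Signs turned only for values near 0. The difference of Ahr between shCr and shCon EVs (0.0049) was -0.0019 with median-of-ratios size factors, -0.0020 with DESeq2, -0.0043 with no low-count filter, -2.7e-05 with at least 10 counts in every library, -0.0015 in a model of 2 groups, and -0.048 to 0.032 without a library. Ahrr after shCr EVs (-0.00021) was 0.00035 with the replicate block and -0.18 to 0.14 without a library. For Cyp7b1 between shCr and shCon EVs (0.16), leaving out a library gave -0.0029 to 0.23, and the sign turned only without shCr EV replicate 1. For Tiparp after shCon EVs (-0.035), leaving out a library gave -0.090 to 0.00073. Same-numbered libraries of different groups did not deviate together (correlations -0.20 to 0.32 over 18 pairs, and 5 of 12 libraries were closest to their own number), so the replicate block pairs libraries by a number alone. In CrOE EV comparisons, the count of genes without overlap was 8 to 9 against untreated cells, 8 against shCon EVs and 7 to 8 against shCr EVs without a library. The depth leaves Cyp1a1 and Ahrr nearly unresolved.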
